A study of Mus musculus with 6 samples.

Results

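The genes described here are 33 type I interferon-stimulated genes, taken by name from the deposited table of raw gene counts. All 33 had a row among the 24047 rows of the table. Of these, 32 were among the 10626 genes with enough counts to be tested, and Ifi44 was not. The libraries came from mouse monocytes in nephrotoxic nephritis, in which antibodies against the glomerulus injure the kidney. Both groups came from wild-type mice of the strain labelled C5/Bl6, aged 8 to 10 weeks, given nephritis and killed on day 13. The kidney group (double_pos in the labels, replicates 7, 8 and 22) held renal monocytes that had been enriched with a kit and sorted. The other group (double, replicates 2, 24 and 26) held sorted monocytes of spleen and bone marrow, for which no enrichment step is described. In all, 10 mice were given nephritis. No group came from healthy mice, so an interferon response shared by all nephritic animals would not show as a difference. A difference of tissue cannot be told apart from one of isolation or of cell make-up. Neither the sort's markers nor the animals behind a library (1 mouse or a pool) are described, and p-values then measure only the spread between these libraries.

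Type I interferons are antiviral cytokines that bind a receptor made of the Ifnar1 and Ifnar2 proteins. Receptor kinases then activate transcription factors that join IRF9 and bind a DNA motif, the interferon-stimulated response element, before the target genes. The products of those genes sense, edit or degrade foreign nucleic acid, block translation and viral budding, or amplify and restrain the response itself. Monocytes and macrophages respond strongly to interferon and also keep a low level of this program without infection.

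The response element has as its core 2 copies of GAAA in the same direction with any 2 bases between them. This core was searched on either strand in the 250 bases before each start site of the RefSeq promoter table (GRCm38.p6, not the mm9 build that the submitters' notes name), in which 25 of the 33 genes had an entry by symbol. It was present for 10 of these 25 genes (40%), compared with 936 of 27025 genes (3.46%) in the whole table. Overlapping matches were each counted. Below are the 160 bases before the start site, 5′ to 3′ on the gene's strand and with each match in capitals, for genes whose values are followed through the libraries. They are Isg15 (chr4:156200819-156200978, minus strand), Ifit1 (chr19:34640729-34640888, plus strand), Ifit3 (chr19:34583369-34583528, plus strand), Rsad2 (chr12:26456453-26456612, minus strand), Cmpk2 (chr12:26469055-26469214, plus strand) and the related genes Oas1a (chr5:120907526-120907685, minus strand) and Oas1g (chr5:120887614-120887773, minus strand).
Isg15: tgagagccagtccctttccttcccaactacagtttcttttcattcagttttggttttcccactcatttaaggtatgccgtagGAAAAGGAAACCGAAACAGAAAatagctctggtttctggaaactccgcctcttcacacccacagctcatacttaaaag
Ifit1: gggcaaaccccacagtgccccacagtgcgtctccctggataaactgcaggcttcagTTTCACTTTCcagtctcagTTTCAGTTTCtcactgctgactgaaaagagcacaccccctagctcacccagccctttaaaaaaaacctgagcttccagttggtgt
Ifit3: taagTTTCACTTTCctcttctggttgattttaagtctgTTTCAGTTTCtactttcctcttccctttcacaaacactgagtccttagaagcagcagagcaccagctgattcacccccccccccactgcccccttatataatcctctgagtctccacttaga
Rsad2: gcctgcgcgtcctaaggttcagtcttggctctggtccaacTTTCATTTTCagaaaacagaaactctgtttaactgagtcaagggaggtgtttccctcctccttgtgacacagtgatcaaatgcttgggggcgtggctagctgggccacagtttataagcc
Cmpk2: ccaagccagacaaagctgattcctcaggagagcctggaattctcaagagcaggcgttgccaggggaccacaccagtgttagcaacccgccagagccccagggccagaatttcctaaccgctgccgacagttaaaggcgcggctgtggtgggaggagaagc
Oas1a: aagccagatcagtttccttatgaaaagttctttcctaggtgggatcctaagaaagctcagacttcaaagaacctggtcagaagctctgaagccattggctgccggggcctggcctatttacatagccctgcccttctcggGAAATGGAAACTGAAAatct
Oas1g: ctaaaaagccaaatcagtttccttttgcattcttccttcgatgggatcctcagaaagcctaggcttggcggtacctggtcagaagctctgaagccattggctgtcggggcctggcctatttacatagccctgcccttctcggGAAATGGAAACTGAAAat

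Isg15 held 3 overlapping matches, between 78 and 57 bases before the start site. Ifit1 and Ifit3 held 2 separate matches each, Rsad2 1, and Oas1a and Oas1g 2 overlapping matches each close to the start site. No match lay in the window of Cmpk2, which says only that these letters are not in those bases. A match is a description of the sequence, and binding was not measured.

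The libraries were read with the following facts in view. The shallowest library, kidney replicate 22, held 3492391 counts and the deepest, from spleen and marrow, 9727489, and a floor of 3 counts is 0.322 to 0.881 CPM (counts scaled to a common library size). Kidney replicate 22 stood apart, since its log2(CPM + 1) values correlated across genes at Pearson's r of 0.875 and 0.872 with kidney replicates 7 and 8, which reached 0.947 with each other (genes are not independent replicates). Replicates 24 and 26 of spleen and marrow were close to each other yet not within sampling noise (chi-square over its degrees of freedom 2.97, against 23.9 to 66.8 for the other pairs within groups). All 8 monocyte markers had counts in every library. They summed to 32947 to 35660 CPM in kidney and 43763 to 60590 CPM in spleen and marrow, a sum made mostly of Lyz2, while 5 of the 8 were called higher in kidney and 2 (Ly6c2 and Lyz2) lower, with a median log2 fold change of 1.28. Tissue macrophage markers summed to 5086 to 6279 CPM in kidney and to 249 to 266 CPM in spleen and marrow. Of the 8 tested, 7 were called higher in kidney and 0 lower, with a median log2 fold change of 5.55.

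None of the tested interferon-stimulated genes passed the threshold between kidney and spleen and marrow monocytes over all 6 libraries. EdgeR's quasi-likelihood test called 0 of the 32 tested genes higher and 0 lower in kidney at a Benjamini-Hochberg adjusted p under 0.05. Over all 10626 genes tested, 13.7% were called, 7.83% higher and 5.9% lower. The median log2 fold change of the 32 genes, kidney over spleen and marrow, was 0.19 (from -1.75 to 2.03), against 0.05 over all genes tested, and 18 were above 0 and 14 below. Without kidney replicate 8 the median was -0.16, with 12 above 0 and 20 below (0.02 over all genes). The sign of the median thus rested on that library. Without spleen and marrow replicate 2 the median was 0.04, with 16 above 0 and 16 below (0.07 over all genes). Summed over the 33 genes, the level was 1151, 1818 and 1312 CPM in kidney replicates 7, 8 and 22 and 1175, 1305 and 1348 CPM in spleen and marrow replicates 2, 24 and 26, so the groups overlapped. In bulk RNA, fewer expressing cells and less RNA per cell cannot be told apart.

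**Figure D1:**
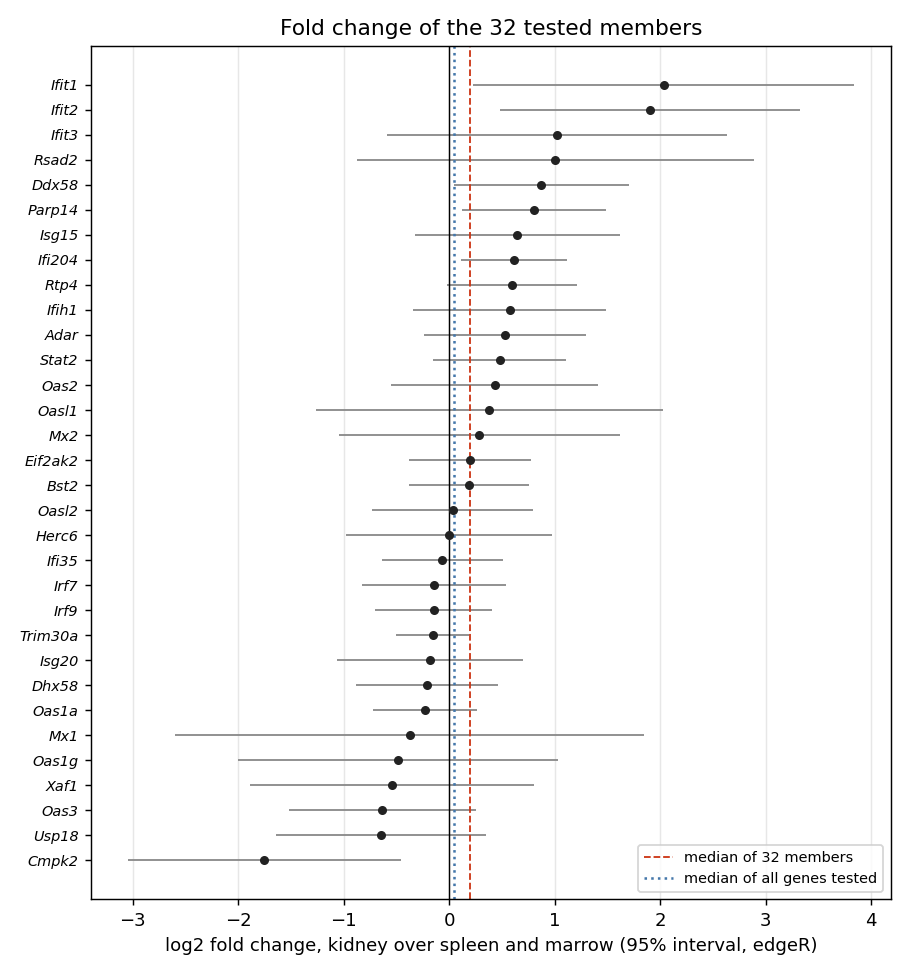
Log2 fold change of each of the 32 tested genes, kidney over spleen and marrow (x axis), with its 95% interval from edgeR (3 libraries a group). Cmpk2 lies lowest at -1.75 and Ifit1 highest at 2.03, and the dashed median of 0.19 and the dotted median of all genes tested, 0.05, are close to 0.

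At an unadjusted p under 0.05, 5 genes were higher (Ifit1, Ifit2, Ddx58, Ifi204 and Parp14) and 1 was lower (Cmpk2). That is 15.6% and 3.12% of the 32, beside 15.4% and 12.5% of all genes tested. The groups did not overlap for 4 genes, with Ddx58 and Ifi204 above and Cmpk2 and Trim30a below in all kidney libraries. Each pair is 6.25% of the 32, beside 19.2% above and 18.8% below over all genes. The missing calls do not show that levels were equal. The 95% interval of the log2 fold change stayed within 1 log2 unit of 0 for 10 of the 32 genes, reached above 1 for 17 and reached below -1 for 9.

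Other fits called at most 3 of these genes. DESeq2 called Ifit1 (adjusted p = 0.0417) and Ifit2 (adjusted p = 0.0165) higher and Cmpk2 lower (adjusted p = 0.0209), where it called 11% of all genes higher and 9.39% lower. Limma-voom called Cmpk2 lower (adjusted p = 0.0382, with 7.89% of all genes called lower). The edgeR calls moved with the kidney library left out. Without replicate 7, Ifit1 and Ifit2 were called higher (8.15% of all genes). Without replicate 8, Ifi204 was called higher (8.52%) and Usp18 and Cmpk2 lower (5.38%). Without replicate 22, Parp14 was called higher (14.3%). Leaving out any 1 spleen and marrow library gave no call among the 32. Those fits called few genes at all, 4.41%, 4.38% and 3.9% of all genes without replicates 2, 24 and 26. In each fit and direction with a call, the calls are 1 or 2 of the 32 genes, 3.12% or 6.25%.

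**Figure D2:**
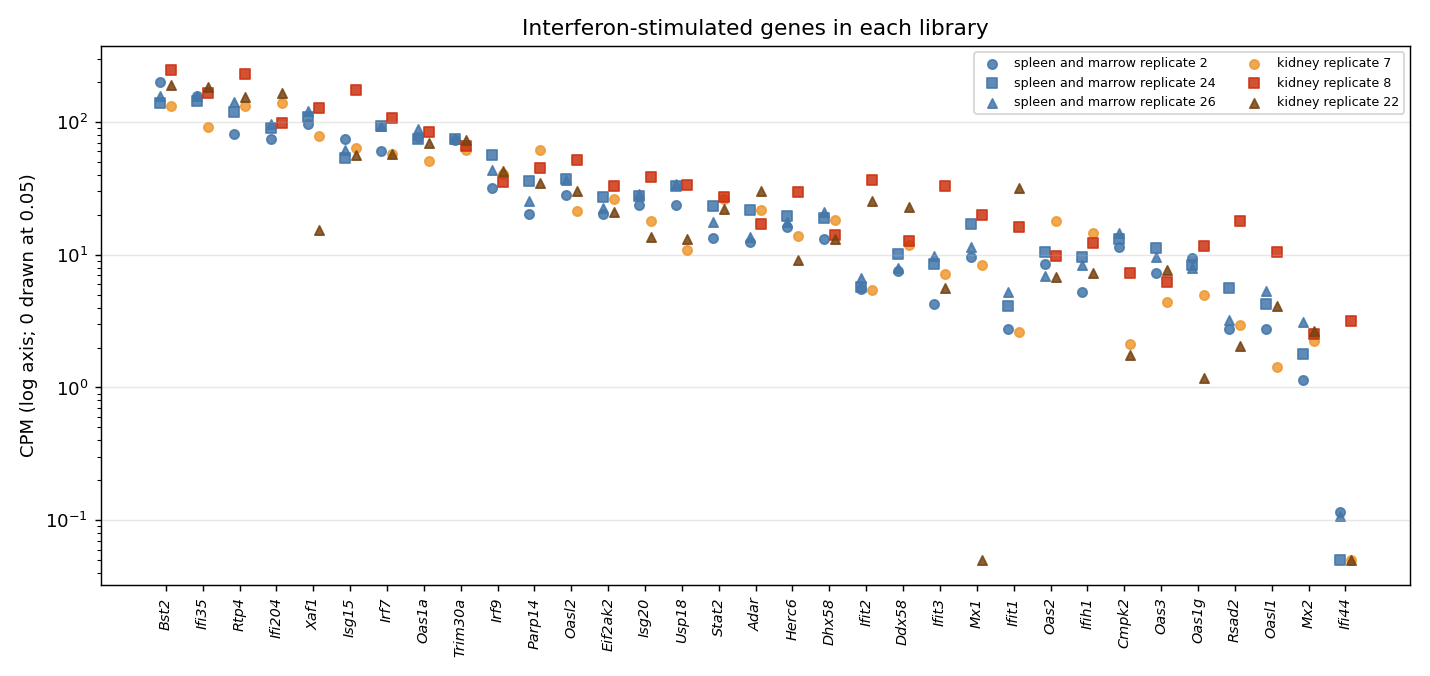
Level of each of the 33 genes in every library, in CPM on a log axis, with genes ordered by their summed group means and a count of 0 drawn at 0.05. The spleen and marrow libraries (blue) lie close together for most genes, while the kidney libraries spread, with Isg15, Ifit3 and Rsad2 highest in replicate 8 and Mx1 at 0 in replicate 22.

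The kidney libraries differed among themselves more than the spleen and marrow libraries did. For 14 of the 32 genes (43.8%), 1 kidney library lay at least 2-fold, on the log2(CPM + 1) scale, from the mean of the other kidney libraries, beside 36.6% of all genes tested. In spleen and marrow this held for 0 of the 32, beside 1.55% of all genes. The median distance between the highest and the lowest library was 0.95 log2 units in kidney (0.86 over all genes) and 0.54 in spleen and marrow (0.33 over all genes). Within that narrower spread, spleen and marrow replicate 2 was the lowest of the 3 for 26 of the 32 genes (81.2%), beside 40.6% of all genes. Across genes, replicates 24 and 26 were closer to each other than to replicate 2 (chi-square over its degrees of freedom 2.97, against 23.9 and 26.2).

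Kidney replicate 8 carried the highest level of many of these genes. It was the highest kidney library for 19 of the 32 genes (59.4%), beside 30.3% of all genes tested, and on the FPKM scale for 23 (71.9%, beside 45.1%). Set against the mean of kidney replicates 7 and 22, 12 genes (37.5%) were at least 2-fold higher in replicate 8, beside 6.2% of all genes. The 12 were Isg15, Usp18, Isg20, Ifit2, Ifit3, Oas1g, Oasl1, Mx1, Rsad2, Cmpk2, Xaf1 and Herc6. By the same measure 6 genes (18.8%, beside 8.37% of all genes) were lower in replicate 7 and 9 (28.1%, beside 20.4%) in replicate 22. The means used for these counts include replicate 8, so they are not separate from its result. All 9 genes, and all of the 6 but Ifit1, are among the 12 above. These are differences between single libraries, with no replicate of their own and no test. The response element core was present for 4 of the 10 of these 12 genes with a promoter entry and for 6 of the 14 other tested genes with one.

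Against the mean of the spleen and marrow libraries, each kidney library gave a different picture. Replicate 8 had a median log2 ratio of 0.49 over the 32 genes (0.01 over all genes), with 27 of 32 above 0. There 7 genes (21.9%) were at least 2-fold higher, beside 10.5% of all genes, namely Isg15, Ifit1, Ifit2, Ifit3, Oasl1, Rsad2 and Rtp4, and 0 were 2-fold lower, beside 7.86%. Replicate 7 had a median of -0.28 (0.07 over all genes), with 1 gene at least 2-fold higher (Parp14, beside 11.2% of all genes) and 3 lower (Usp18, Oasl1 and Cmpk2, beside 8.43%). Replicate 22 had a median of -0.15 (-0.13 over all genes), with 3 genes higher (Ifit1, Ifit2 and Ddx58, beside 16.1%) and 5 lower (Usp18, Oas1g, Mx1, Cmpk2 and Xaf1, beside 22%). Of the 7 genes raised at least 2-fold in replicate 8, Ifit1 and Ifit2 were also raised in replicate 22 and none in replicate 7.

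**Figure D3:**
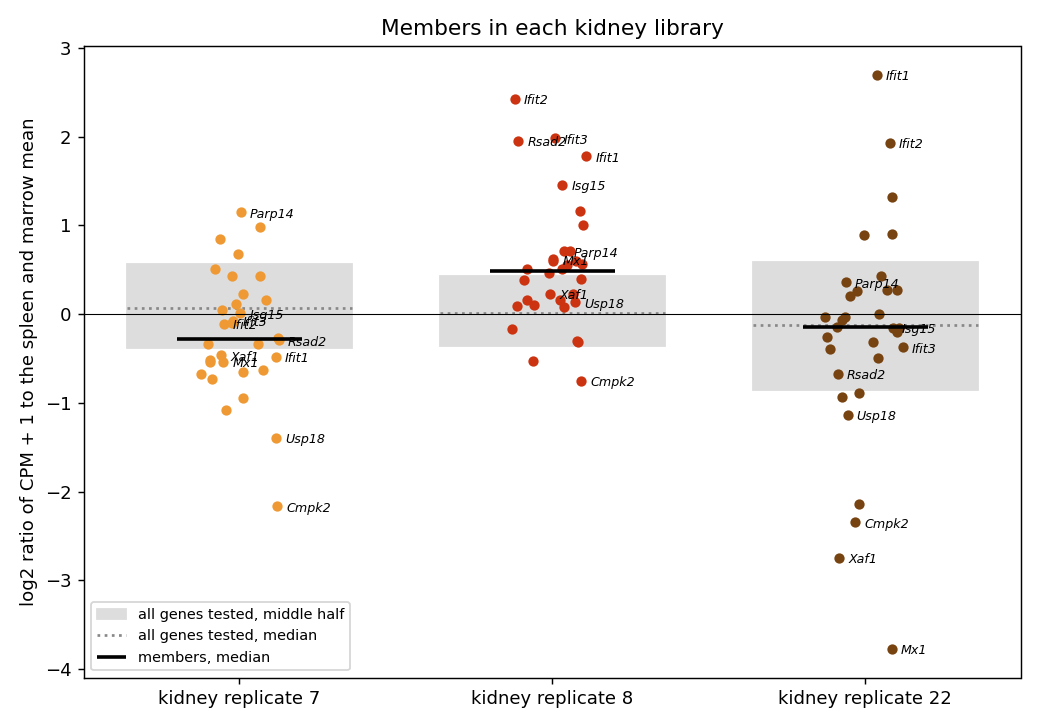
Log2 ratio of CPM + 1 in each kidney library to the mean of the spleen and marrow libraries (y axis), with 1 point for each of the 32 tested genes, a black line at their median and a grey box and dotted line for the middle 50 percent and the median of all genes tested. The black line lies at -0.28, 0.49 and -0.15 in replicates 7, 8 and 22, with the Ifit genes, Isg15 and Rsad2 at the top of replicate 8.

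Values below are CPM in spleen and marrow replicates 2, 24 and 26, then in kidney replicates 7, 8 and 22, and fold changes are log2 values of kidney over spleen and marrow from edgeR with their standard error. Isg15 encodes a ubiquitin-like protein that is secreted or attached to other proteins. It stood at 74.8, 53.8 and 61.1 CPM in spleen and marrow and 63.8, 176 and 56.7 CPM in kidney. Replicate 8 lay above all other libraries and the other 5 lay together, with a log2 fold change of 0.65 ± 0.42 that became -0.078 without replicate 8. Usp18, the protease that takes the ISG15 protein off its targets and restrains the receptor, stood at 23.7, 32.7 and 34.3 CPM in spleen and marrow and 10.9, 33.2 and 13.2 CPM in kidney. Kidney replicates 7 and 22 lay below the spleen and marrow range and replicate 8 within it, with a log2 fold change of -0.65 ± 0.43. The call without replicate 8 had adjusted p = 0.0305 and a log2 fold change of -1.34. Herc6, which encodes the ligase that attaches the ISG15 protein in mice, stood at 16.2, 19.4 and 17.6 CPM in spleen and marrow and 13.9, 29.6 and 9.10 CPM in kidney and showed replicate 8 alone above the other group (log2 fold change -0.0019 ± 0.42).

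The Ifit genes encode related antiviral proteins, and that of Ifit1 binds RNA with foreign ends and stops its translation. Ifit1 stood at 2.76, 4.10 and 5.25 CPM in spleen and marrow and 2.61, 16.3 and 31.7 CPM in kidney. Kidney replicates 8 and 22 lay above spleen and marrow. Replicate 7, with 22 counts, lay close to spleen and marrow replicate 2, with 24, just below it in CPM and above it in FPKM (0.421 against 0.398). Its log2 fold change was 2.03 ± 0.78, with a 95% interval from 0.23 to 3.84. Ifit2 stood at 5.51, 5.75 and 6.65 CPM in spleen and marrow and 5.45, 36.4 and 25.5 CPM in kidney. It split the kidney libraries in the same way, with replicates 8 and 22 high (log2 fold change 1.90 ± 0.61, 95% interval 0.48 to 3.33). Replicate 7 lay just below spleen and marrow in CPM but not in FPKM (0.502, against 0.496 in spleen and marrow replicate 2). Ifit3 stood at 4.25, 8.48 and 9.86 CPM in spleen and marrow and 7.11, 32.7 and 5.58 CPM in kidney, where replicate 8 alone was high and replicate 22 fell within the range of spleen and marrow (log2 fold change 1.02 ± 0.70, and -0.24 without replicate 8). The 3 genes thus parted in replicate 22. Of the other genes that act on RNA, Isg20 encodes an RNA exonuclease and stood at 23.8, 27.5 and 28.5 CPM in spleen and marrow and 18.0, 38.3 and 13.5 CPM in kidney, highest in kidney replicate 8 and lowest in replicates 7 and 22. Eif2ak2, whose kinase PKR halts translation on double-stranded RNA, stood at 20.4, 27.1 and 22.6 CPM in spleen and marrow and 26.3, 32.7 and 21.1 CPM in kidney, with groups that overlapped and an interval from -0.38 to 0.77. Adar, whose product edits adenosine to inosine in double-stranded RNA, stood at 12.4, 21.6 and 13.6 CPM in spleen and marrow and 21.8, 17.1 and 30.2 CPM in kidney, and was highest in kidney replicate 22 (log2 fold change 0.53 ± 0.33).

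The 2-5A synthetases make a short oligonucleotide that switches on RNase L. Oas1a, the most abundant of them, stood at 76.8, 74.3 and 87.8 CPM in spleen and marrow and 50.5, 84.3 and 69.3 CPM in kidney. The groups overlapped, with a log2 fold change of -0.23 ± 0.21 and an interval from -0.72 to 0.26. Oas1g stood at 9.42, 8.34 and 7.93 CPM in spleen and marrow and 4.98, 11.6 and 1.17 CPM in kidney. In kidney replicate 22 this rests on 4 counts, while its deposited FPKM there was 4.19, against 6.19 and 12.2 in replicates 7 and 8. Oas1a and Oas1g are close in sequence and reads may be split between them, so the value of Oas1g is uncertain. Oas2 stood at 8.50, 10.5 and 6.86 CPM in spleen and marrow and 18.0, 9.73 and 6.75 CPM in kidney, highest in kidney replicate 7. Oas3 stood at 7.24, 11.2 and 9.54 CPM in spleen and marrow and 4.38, 6.19 and 7.64 CPM in kidney, with kidney replicates 7 and 8 below all spleen and marrow libraries and replicate 22 within their range (log2 fold change -0.63 ± 0.38). These genes did not share 1 order of the kidney libraries. Oasl1, an inhibitor of Irf7 translation, stood at 2.76, 4.24 and 5.36 CPM in spleen and marrow and 1.42, 10.5 and 4.11 CPM in kidney, and Oasl2 at 28.0, 36.9 and 36.3 CPM in spleen and marrow and 21.4, 51.7 and 30.2 CPM in kidney. Both were highest in kidney replicate 8 and lowest in replicate 7, on either side of the spleen and marrow libraries.

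Mx1 and Mx2 encode GTPases that block viral replication and are defective in many laboratory strains. Mx1 stood at 9.65, 17.0 and 11.4 CPM in spleen and marrow and 8.41, 20 and 0 CPM in kidney. The absence of counts in kidney replicate 22 allows up to 0.881 CPM at the floor of 3 counts, below every other library. Its log2 fold change was -0.37 ± 0.96, with an interval from -2.60 to 1.85. Mx2 stood at 1.15, 1.78 and 3.11 CPM in spleen and marrow and 2.25, 2.53 and 2.64 CPM in kidney, with overlapping groups and 9 to 29 counts a library.

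Stat2 and Irf9 encode partners in the complex that binds the response element, and Irf7 encodes the factor that amplifies interferon production. Stat2 stood at 13.3, 23.3 and 17.8 CPM in spleen and marrow and 26.3, 27.2 and 22 CPM in kidney (log2 fold change 0.48 ± 0.27). Kidney replicates 7 and 8 lay above all spleen and marrow libraries and replicate 22 within their range. Irf9 stood at 31.9, 56.1 and 43.6 CPM in spleen and marrow and 40.9, 35.3 and 42.9 CPM in kidney, with all kidney libraries inside the spleen and marrow range and an interval from -0.70 to 0.41. Irf7 stood at 60.5, 93.0 and 92.6 CPM in spleen and marrow and 57.0, 107 and 57.9 CPM in kidney, highest in kidney replicate 8 and lowest in replicates 7 and 22 (interval from -0.83 to 0.54). Irf7 shares exon bases with Phrf1 on the opposite strand, Irf9 with Rnf31 and Adar with Chrnb2 in the GENCODE M21 annotation. The library chemistry does not mark strand, and how the authors counted reads in shared bases is not given in the sources used here.

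Among the sensors of foreign nucleic acid, Ddx58 encodes RIG-I. It stood at 7.58, 10.1 and 7.93 CPM in spleen and marrow and 11.9, 12.6 and 22.9 CPM in kidney, and all kidney libraries lay above all spleen and marrow libraries. The log2 fold change was 0.87 ± 0.36 (95% interval 0.04 to 1.70, adjusted p = 0.160), and its edgeR adjusted p lay between 0.125 and 0.419 on leaving out any 1 library. Ifih1, which encodes MDA5, stood at 5.28, 9.58 and 8.36 CPM in spleen and marrow and 14.7, 12.3 and 7.34 CPM in kidney, where kidney replicates 7 and 8 lay above the other group. Dhx58, which encodes their regulator LGP2, stood at 13.1, 18.9 and 21.1 CPM in spleen and marrow and 18.4, 14.2 and 13.2 CPM in kidney, within the spleen and marrow range in all kidney libraries. Ifi204 encodes a DNA-binding protein of the PYHIN family and stood at 74.4, 90.3 and 97.1 CPM in spleen and marrow and 140.0, 97.9 and 164 CPM in kidney. The kidney libraries lay above all spleen and marrow libraries, though replicate 8 only just, with a log2 fold change of 0.62 ± 0.22 and adjusted p = 0.107 (0.0354 without replicate 8).

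Rsad2 and Cmpk2 are neighbours on chromosome 12, and their products, viperin and a mitochondrial nucleotide kinase, act on the same nucleotide pool. Rsad2 stood at 2.76, 5.61 and 3.22 CPM in spleen and marrow and 2.96, 17.8 and 2.06 CPM in kidney. Kidney replicate 8 alone was high, with a log2 fold change of 1.01 ± 0.81 that fell to -0.60 without it. Cmpk2 stood at 11.4, 13.1 and 14.6 CPM in spleen and marrow and 2.13, 7.33 and 1.76 CPM in kidney. All kidney libraries lay below all spleen and marrow libraries, and replicate 8 was again the highest of the kidney libraries. The log2 fold change of Cmpk2 was -1.75 ± 0.56 (95% interval -3.05 to -0.46, edgeR adjusted p = 0.0792). Adjusted p was 0.0111 without replicate 8 and up to 0.245 without another library. Against spleen and marrow the pair therefore differed in direction in replicate 8, with log2 ratios of 1.95 for Rsad2 and -0.75 for Cmpk2. Bst2 encodes tetherin, which holds budding virus at the cell surface, and stood at 201, 138 and 158 CPM in spleen and marrow and 131, 245 and 191 CPM in kidney. It was the most abundant of these genes per length in both groups, and the groups overlapped (log2 fold change 0.19 ± 0.25, interval from -0.38 to 0.76). Bst2 is also a surface marker of plasmacytoid dendritic cells, whose marker list is given with the other cell types.

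Of the remaining genes, Xaf1, whose product counters an inhibitor of cell death, stood at 95.8, 108 and 121 CPM in spleen and marrow and 78.1, 127 and 15.3 CPM in kidney. Kidney replicate 22 held 52 counts, far below every other library. Its log2 fold change was -0.54 ± 0.58, with an interval from -1.89 to 0.80. Parp14, an ADP-ribosyltransferase, stood at 20.1, 35.7 and 25.2 CPM in spleen and marrow and 61.0, 44.7 and 34.9 CPM in kidney, highest in kidney replicate 7 and with replicate 22 just under the top of the spleen and marrow range (log2 fold change 0.80 ± 0.29, adjusted p = 0.119, and 0.0339 without replicate 22). Rtp4, a Golgi chaperone, stood at 80.9, 119 and 140.2 CPM in spleen and marrow and 133, 228 and 153 CPM in kidney (log2 fold change 0.60 ± 0.27). Only kidney replicate 7 lay inside the spleen and marrow range. Trim30a, a ubiquitin ligase gene that restrains inflammatory signalling, stood at 73.3, 74.8 and 74.1 CPM in spleen and marrow and 61.5, 65.8 and 72.5 CPM in kidney. Its kidney libraries lay just below the narrow spleen and marrow range, with a log2 fold change of -0.15 ± 0.15. Ifi35, an interferon-induced leucine zipper protein gene, stood at 157, 144 and 156 CPM in spleen and marrow and 91.2, 164 and 183 CPM in kidney, low in kidney replicate 7. Ifi44, the gene left untested, had 1, 0 and 1 counts in spleen and marrow and 0, 25 and 0 counts in kidney. All of its kidney counts were in replicate 8, and the pooled ratio of kidney to spleen and marrow was 16.0 (95% exact binomial interval 4.0 to 140, counting error only).

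Levels can be compared between genes only per length, for which the deposited FPKM values (reads scaled by depth and transcript length) were used. Bst2 led in both groups, at 147 ± 60.3 FPKM in kidney (mean ± SD, n = 3 each) and at 141 ± 23.8 FPKM in the other group. Next in kidney came Isg15 at 66.4 ± 50.6, Ifi35 at 52.6 ± 16.8, Rtp4 at 43.5 ± 17.8 and Ifi204 at 32 ± 3.51 FPKM, and from Isg15 on, neighbours in this order differed by less than the larger of their SDs. In spleen and marrow the order was Ifi35 at 62.2 ± 3.30, Isg15 at 43.4 ± 6.21, Oas1a at 31.6 ± 2.73 and Rtp4 at 30.1 ± 8.08 FPKM. Some of the genes that moved most between kidney libraries were scarce. Rsad2, for example, held 0.847 ± 1.04 FPKM in kidney and ranked 29 of 33 there. Ifit1 ranked 19 in kidney and 29 in spleen and marrow.

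The rest of the pathway was read from lists chosen for role. Of 15 interferon ligand genes, 13 had no count in any library and none was tested. Ifnb1, which encodes interferon beta, had 15 counts in kidney replicate 8, 5 in spleen and marrow replicate 2 and 0 in the other libraries. Kidney replicate 8 had the most Ifnb1 counts and also the highest sum of interferon-stimulated transcripts. Spleen and marrow replicate 2, with 5 counts, was mostly the lowest of its group for those transcripts. These are few counts in single libraries, and a link between them was not tested. Of 5 genes of the receptor and its signalling, 0 were called. Ifnar2 stood at 258, 239.5 and 241 CPM in spleen and marrow and 223, 274 and 301 CPM in kidney, with a log2 fold change of 0.11 ± 0.15 and an edgeR adjusted p of 0.675. Ifnar1, chosen after its values were seen, stood at 24.2, 26.3 and 24.9 CPM in spleen and marrow and 65.3, 44.7 and 34.1 CPM in kidney and narrowly missed the threshold (log2 fold change 0.94 ± 0.26, edgeR adjusted p = 0.0514), with kidney above in all libraries.

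Of 19 sensors, adaptors and interferon regulatory factors, 3 were called higher and 0 lower, beside 7.83% and 5.9% of all genes tested. They were Ikbke and Tbk1, kinases that switch on IRF3 and IRF7, and Unc93b1, which carries Toll-like receptors to endosomes. Ikbke stood at 10.2, 10.5 and 13.9 CPM in spleen and marrow and 27.4, 19.3 and 40.5 CPM in kidney, a log2 fold change of 1.32 ± 0.33. Tbk1 stood at 15.2, 20.2 and 17.7 CPM in spleen and marrow and 46.7, 30.5 and 28.2 CPM in kidney, a log2 fold change of 0.99 ± 0.27. Unc93b1 stood at 209, 278 and 286 CPM in spleen and marrow and 388, 361 and 393 CPM in kidney, a log2 fold change of 0.56 ± 0.15. All kidney libraries lay above for these 3, as for 19.2% of all genes. Their edgeR adjusted p was 0.0359, 0.0475 and 0.0489 and rose to as much as 0.155, 0.192 and 0.138 on leaving out 1 library, and on FPKM none of the 3 was called.

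Of 10 genes that restrain the response, 2 were higher and 2 lower, beside 7.83% and 5.9% of all genes tested. Socs3 and Socs1 encode suppressors of cytokine receptor signalling. Socs3 rose from 40.1, 28.2 and 29.7 CPM in spleen and marrow to 171, 183 and 66.7 CPM in kidney (log2 fold change 2.11 ± 0.37, edgeR adjusted p = 0.0103, up to 0.0686 on leaving out 1 library and up to 0.0770 on FPKM). Socs1 rose from 9.19, 6.16 and 6.11 CPM to 12.9, 29.7 and 38.5 CPM (log2 fold change 1.90 ± 0.44, edgeR adjusted p = 0.0262, up to 0.131). Rnaseh2b and Rnaseh2c, subunits of an enzyme that clears RNA from DNA and also serves DNA replication, fell by 1.61 and 1.38 on the log2 scale (edgeR adjusted p = 0.00136 and 0.00109, and at most 0.0147 and 0.0128 on leaving out any 1 library). Markers of the cell cycle summed to 50.5, 166 and 223 CPM in kidney against 1363 to 1545 CPM in spleen and marrow beside these 2 genes, and their part in the fall was not tested.

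A further list held 35 interferon-stimulated genes outside the 33, of which 31 were tested, 4 called higher and 1 lower, and 3 are not analysed here because their names had no row. The median log2 fold change was 0.24. Ifi205, of the same PYHIN family as Ifi204, rose from 15.4, 13.5 and 12.3 CPM to 41.6, 100.3 and 81.9 CPM (log2 fold change 2.44 ± 0.33, edgeR adjusted p = 0.00395, at most 0.0334 on leaving out any 1 library). On FPKM the call of Ifi205 was lost, with a log2 fold change of 1.01 and 1.05 at pseudocounts of 1 and 0.1 and limma adjusted p of 0.0734 and 0.0760. Lgals3bp, a secreted glycoprotein gene, and Phf11b rose by log2 folds of 1.04 ± 0.24 and 1.21 ± 0.32, with adjusted p of 0.0278 and 0.0467 that reached 0.126 and 0.183 on leaving out 1 library, and neither was called on FPKM. Ifi27, chosen after its values were seen, was the other gene called higher (log2 fold change 0.86 ± 0.23, edgeR adjusted p = 0.0471, up to 0.174). Ifitm3, which blocks virus entry, fell from 7655, 7805 and 8293 CPM to 4211, 4989 and 3701 CPM (log2 fold change -0.88 ± 0.13, edgeR adjusted p = 0.00573, at most 0.0361 on leaving out any 1 library). On FPKM the limma adjusted p of Ifitm3 was 0.0513 and 0.0588, so the call was lost. The share called, 5 of 31, stands beside 13.7% of all genes.

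Transcripts of other cells differed between the kidney libraries, and only some were highest in replicate 8. Endothelial markers summed to 21.1, 802 and 11.7 CPM in kidney replicates 7, 8 and 22 and to 4.38 to 10.1 CPM in spleen and marrow. All 7 endothelial markers had a count in replicate 8. Fibroblast and mural markers were also highest there, at 53.7 CPM against 11.4 to 13.7 CPM in every other library. Kidney tubule markers were highest in replicate 22 (499.5 CPM, against 186 and 79.9 CPM in replicates 7 and 8), and so were neutrophil markers (14362 CPM, against 392 and 1307 CPM, and 6932 to 9846 CPM in spleen and marrow). Plasmacytoid dendritic cell markers summed to 65.8 to 106 CPM in kidney and 37.9 to 48.7 CPM in spleen and marrow. In kidney replicate 22, 71.9 CPM of that sum was Klk1, which kidney tubule also makes, and Klk1 was the only one of the 5 tested markers called higher. Between 5 and 8 of the 10 markers had a count in each kidney library, and Siglech and Cd8a were at 0 in all 3. T and NK cell markers summed to 5.69 to 28.2 CPM in kidney and 80.0 to 117 CPM in spleen and marrow. Conventional dendritic cell markers summed to 62.3, 45.7 and 5.58 CPM in kidney replicates 7, 8 and 22 and to 27.3 to 48.2 CPM in spleen and marrow. Only 1 of these 6 markers had a count in kidney replicate 22. B cell markers summed to 25.3 to 47.3 CPM over all libraries. The part of these cells in the spread of the interferon-stimulated genes was not tested.

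**Figure D4:**
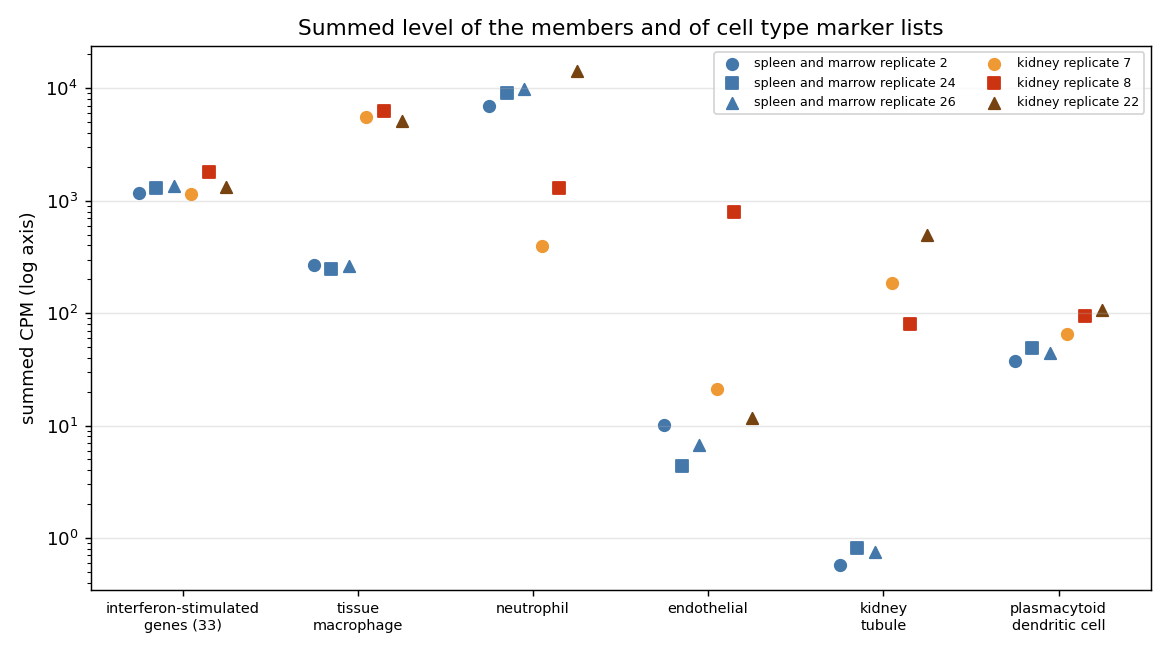
Summed CPM (log axis) of the 33 interferon-stimulated genes and of marker lists for 5 cell types, with 1 point for each library. The interferon-stimulated sum runs only from 1151 to 1818 CPM and is highest in kidney replicate 8, where the endothelial sum is 802 CPM against at most 21.1 CPM in any other library.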

How the data were processed

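RNA sequencing libraries of 6 samples (Smart-Seq v4 cDNA, sheared) were analysed from the tables deposited for the whole series. The mm9 build, the aligner STAR 2.5, bcl2fastq 2.18 and Cufflinks 2.2.1 were used, per the submitters' processing notes. Which tool counted reads and on which annotation is not given in the sources used here. The authors deposited raw gene counts and, separately, FPKM values. The test on counts was that of edgeR 4.0.16, run in R 4.3.3 (filterByExpr, TMM scaling, quasi-likelihood F test, two-sided, Benjamini-Hochberg adjustment over all 10626 genes tested). CPM are counts scaled to a common library size after TMM adjustment. Ratios of single libraries used CPM + 1, and deposited FPKM values served for levels between genes and as an alternative. Alternatives were DESeq2 1.42.0, limma 3.58.1 (voom on counts, trend on log2 FPKM), other scalings and filters, leaving out each library, and summing spleen and marrow replicates 24 and 26. The 33 genes and the other lists were chosen with earlier results of these data known. All 33 are named, with up to 3 called genes a direction from each pathway list or, where none was called, its 2 most abundant, of which 1 is not reported here. Promoter letters come from RefSeq (GRCm38.p6). No column of the deposited tables was left out.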

Additional observations from a re-analysis of the deposited data

How the results depend on the processing

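With 3 libraries a group and a median standard error of 0.38 log2 units, changes well above 2-fold could also go uncalled here. Ifit1, Ifit2 and Cmpk2 did so in the main fit at log2 fold changes of 2.03, 1.90 and -1.75. Genes of few counts in kidney replicate 22 are the least precise. No paired analysis was made, because the groups share no replicate number and the animals behind each library are not described. Whether libraries of the 2 groups share animals is therefore unknown. Over all genes, 1459 calls became 500 with spleen and marrow replicates 24 and 26 summed, 511 at an adjusted p under 0.01, and 439 to 2784 on leaving out 1 library, the highest without kidney replicate 22. Genes called higher (832) became 468 and 543 with log2(FPKM + 1) and log2(FPKM + 0.1), 299 summed, 322 at 0.01, and 260 to 1569 on leaving out 1 library. Genes called lower (627) became 995 with DESeq2, 201 summed, 189 at 0.01, and 179 to 1215 on leaving out 1 library. Among the interferon-stimulated genes, DESeq2 called 2 higher and 1 lower, limma-voom 1 lower, and leaving out 1 library 0 to 2 higher and 0 to 2 lower. The 12 calls in the pathway lists became 4 with either FPKM pseudocount, 4 summed, 4 at 0.01, and 4 to 16 on leaving out 1 library (4 without any single spleen and marrow library). The cause was not tested.

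The fold changes given next turned sign under at least 1 alternative. On FPKM (pseudocount 1, then 0.1) the log2 fold change was -0.00057 and -0.042 for Eif2ak2, -0.19 and -0.26 for Oasl2, -0.017 and -0.027 for Mx2, -0.0019 and -0.0022 for Bst2, and -0.017 and -0.017 for Ifnar2. Limma-voom gave -0.056 for Oasl1 and -0.045 for Oasl2, and no count filter gave -0.0094 for Oasl2. Herc6 was 0.062 with library size alone, 0.0077 with at least 10 counts and 0.0038 with the summed libraries. Leaving out 1 library gave log2 fold changes from -0.078 to 0.90 for Isg15, -0.75 to 0.066 for Isg20, -0.24 to 1.39 for Ifit3, -0.045 to 0.66 for Oas2, -0.63 to 0.86 for Oasl1, -0.40 to 0.30 for Oasl2, -1.48 to 0.15 for Mx1, -0.0068 to 0.73 for Mx2, -0.52 to 0.026 for Irf7, -0.35 to 0.047 for Irf9, -0.60 to 1.42 for Rsad2, -0.048 to 0.40 for Bst2, -0.27 to 0.19 for Ifi35, -0.62 to 0.28 for Herc6 and -0.0059 to 0.23 for Ifnar2. Isg15, Ifit3, Oasl1, Oasl2, Rsad2 and Bst2 turned without kidney replicate 8. Of the values of the 32 genes under the alternatives, 471 kept direction and side of the threshold, 31 turned sign and 10 passed the threshold. Those kept include the values at an adjusted p under 0.01, a setting that reuses the main fit and could move none of these genes.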
